A study of Mus musculus with 18 samples.

Results

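The TNF receptor and ligand superfamily was described here in brain endothelial cells isolated from adult mice, with and without the gene Pdcd10 and at 2 oxygen levels. Its members were taken by name: every row of the gene count table whose mouse symbol begins with Tnfrsf or Tnfsf and that held at least 10 counts over the 18 libraries, with 1 symbol left out by the rule. There were 30 such genes among 57010 rows, of which 19 were receptors and 11 were ligands or ligand loci. Under the limit of 10 counts were Tnfsf11, with 8 counts in all, and Tnfsf4, with 2. Of the 30 members, 26 passed the filter on low counts and were tested together with the 17531 genes that passed; Tnfsf14, Tnfrsf17, Tnfsf13b and Tnfsf18, with 31, 12, 113 and 54 counts in all, did not.

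The cells came from mice of postnatal day 57 that carried floxed alleles of Pdcd10 (Pdcd10 fl/fl; the gene encodes CCM3, whose loss causes cerebral cavernous malformations) and the astrocyte reporter Aldh1l1-EGFP/Rpl10a. In the group called KO the animals also carried Slco1c1-iCreERT2, a Cre recombinase active in brain endothelium and switched on by 50 µg of 4-hydroxy-tamoxifen at postnatal day 1. The group called flox had the floxed alleles and the reporter without the driver. The sample records list the same injection, 50 µg at postnatal day 1, for the flox libraries as for the KO libraries. Driver animals that were not injected were also used as controls, and which libraries came from them, if any, is not given in the sources used here. Hypoxia was 12% oxygen for 7 days and normoxia 21% oxygen. This gave 4 normoxia flox libraries (numbered 1, 2, 3 and 4 in the labels), 5 normoxia KO libraries (1, 2, 4, 5 and 6), 4 hypoxia flox libraries (2, 3, 4 and 5) and 5 hypoxia KO libraries (1, 2, 3, 4 and 5), with 17.9 to 31.2 M counts each. Values by library are given below in these orders. The labels do not say whether each library is a separate animal, so p values measure the spread between these libraries.

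Ligands of the superfamily are mostly trimeric membrane proteins, some of which are shed, and they cluster the receptors they bind. One class of receptors carries a death domain and can recruit FADD, TRADD and caspase 8; the other binds TRAF adaptors and feeds the NF-kB and MAP kinase pathways; decoy receptors bind ligand without passing on a death signal. Endothelial cells are known to respond to TNF through TNFR1 and TNFR2 by raising adhesion molecules. Many other members are best known from T and B lymphocytes, where they act as co-stimulators or survival factors.

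The targeted gene followed the labels. Pdcd10 stood at 30.6 to 60.9 CPM (counts scaled to the TMM-scaled library total) in the flox libraries and at 16.3 to 25.3 CPM in the KO libraries. The sum of 10 brain endothelial markers was 14800 to 22400 CPM in every library. Normoxia flox 4 and normoxia KO 4 also held neuron markers, 2140 and 1170 CPM over 8 genes against at most 32.4 CPM elsewhere. In the same 2 libraries 6 astrocyte markers summed to 1830 and 1020 CPM, against 81.2 to 242 CPM elsewhere. Oligodendrocyte markers were present in every library, at 630 to 5160 CPM over 8 genes, with the highest sum in normoxia flox 4. All hypoxia flox libraries had Y-linked counts and 4 of the 5 from hypoxia KO had Xist in their place, so that in hypoxia sex nearly follows genotype, and normoxia flox 3, normoxia flox 4 and normoxia KO 4 held both. Lymphocyte marker sums had higher medians in KO at each oxygen level. In normoxia 13 T cell markers summed to 1.39 to 12.6 CPM in flox and to 4.76 to 9.68 CPM in KO. The 12.6 CPM was in normoxia flox 4, where Cd4 alone gave 10.6 CPM. In hypoxia the same markers summed to 1.13 to 6.29 CPM in flox and to 4.36 to 29.9 CPM in KO, again with overlap. Over both oxygen levels, 9 B and plasma cell markers summed to 6.17 to 20.8 CPM in flox and to 13.1 to 64.7 CPM in KO. Of the 6 pericyte markers, 2 passed as higher in KO in normoxia and 4 in hypoxia, and of 6 smooth muscle markers 4 and 3 passed as lower and 1 as higher at each oxygen level. In such bulk RNA, fewer cells of a type and less RNA per cell cannot be told apart.

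The members with a log2 fold change above 2 in KO at both oxygen levels were Tnfrsf9, Tnfsf15, Tnfrsf8 and Tnfsf8, and the 250 bases before their starts are shown because these 4 genes carry most of what follows. All 4 lie on chromosome 4, and so do members that did not rise. These include Tnfrsf25 and Tnfrsf4, which passed as lower in KO in hypoxia, and Tnfrsf14 and Tnfrsf18, which did not pass. Tnfsf15 and Tnfsf8 are next to each other, as are Tnfrsf8 and another raised member, Tnfrsf1b, in the RefSeq gene order. The sequences are from RefSeq on GRCm38.p6, which had an entry for 23 of the 30 members, and are written 5′ to 3′ on the gene's strand up to the base before the start. Capitals mark every match on either strand to the NF-kB consensus, to the AP-1 site TGANTCA or to the hypoxia response core ACGTG. The coordinates are chr4:63745060-63745309 (minus strand) for Tnfsf15, chr4:63861285-63861534 (minus) for Tnfsf8, chr4:145315165-145315414 (minus) for Tnfrsf8, and chr4:150919905-150920154 and chr4:150927749-150927998 (plus) for the starts 1 and 2 of Tnfrsf9.
Tnfsf15: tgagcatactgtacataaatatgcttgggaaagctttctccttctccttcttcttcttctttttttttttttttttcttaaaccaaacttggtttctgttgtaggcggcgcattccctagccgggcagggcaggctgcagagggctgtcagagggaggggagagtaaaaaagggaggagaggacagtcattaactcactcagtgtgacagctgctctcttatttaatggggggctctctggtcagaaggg
Tnfsf8: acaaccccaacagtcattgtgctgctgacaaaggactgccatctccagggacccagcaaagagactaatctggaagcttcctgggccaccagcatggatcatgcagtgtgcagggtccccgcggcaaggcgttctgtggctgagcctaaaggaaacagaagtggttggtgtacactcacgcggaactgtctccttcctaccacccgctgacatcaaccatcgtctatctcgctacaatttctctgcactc
Tnfrsf8: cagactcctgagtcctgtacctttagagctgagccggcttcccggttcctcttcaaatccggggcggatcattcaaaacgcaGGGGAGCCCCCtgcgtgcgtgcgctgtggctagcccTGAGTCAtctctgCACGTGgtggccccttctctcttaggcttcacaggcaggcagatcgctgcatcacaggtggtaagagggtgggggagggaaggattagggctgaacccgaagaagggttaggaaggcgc
Tnfrsf9 start 1: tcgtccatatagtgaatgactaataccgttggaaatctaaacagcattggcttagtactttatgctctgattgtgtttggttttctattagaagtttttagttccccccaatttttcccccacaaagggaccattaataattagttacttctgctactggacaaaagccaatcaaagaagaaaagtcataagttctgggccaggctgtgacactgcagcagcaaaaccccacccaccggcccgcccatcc
Tnfrsf9 start 2: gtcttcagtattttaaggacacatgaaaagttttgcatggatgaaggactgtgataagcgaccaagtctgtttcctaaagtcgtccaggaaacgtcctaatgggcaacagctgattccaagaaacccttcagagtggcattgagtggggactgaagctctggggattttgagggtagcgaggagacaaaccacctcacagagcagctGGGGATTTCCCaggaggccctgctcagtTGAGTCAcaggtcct

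The neighbouring ligand genes Tnfsf15 and Tnfsf8 held none of the 3 motifs in these letters, and neither did start 1 of Tnfrsf9. In Tnfrsf8, a pair of overlapping NF-kB matches began 168 and 167 bases before the start, an AP-1 match 132 bases before it, and a hypoxia core read on both strands 119 and 118 bases before it. Start 2 of Tnfrsf9 had overlapping NF-kB matches 43 and 42 bases before the start and an AP-1 match 15 bases before it. Over all 32841 windows of this length, 7.25% held the NF-kB consensus, 6.75% the AP-1 site and 16.6% the hypoxia core. Among the 26 windows of the members, these were found in 3, 5 and 5. A match describes letters only and no binding was measured.

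Per length, the family spanned from some of the well expressed genes of these cells to near the limit of detection. On the scale of the deposited RPKM (reads scaled by gene length and library total), averaged over the 18 libraries, 7 of the 30 members were at 10 or above, 9 between 1 and 10, and 14 under 1. The highest was the TWEAK receptor gene Tnfrsf12a at 37.1 RPKM, followed by both TNF receptors, Tnfrsf1a at 29.4 and Tnfrsf1b at 19.7 RPKM, and the TRAIL gene Tnfsf10 at 18.2 RPKM. Tnfrsf21 (death receptor 6), Tnfrsf25 (death receptor 3) and Tnfsf12 (TWEAK) came next at 14, 12.4 and 11 RPKM. This order was not the same in every group: in normoxia flox the mean of Tnfrsf1a, 30.2 ± 5.5 RPKM (SD, n = 4), was above that of Tnfrsf12a, 12.6 ± 4.15 RPKM (SD, n = 4), while in hypoxia KO Tnfrsf12a stood at 64.5 ± 22.8 RPKM (SD, n = 5) and Tnfrsf1a at 28.2 ± 4.27 RPKM (SD, n = 5).

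**Figure D1:**
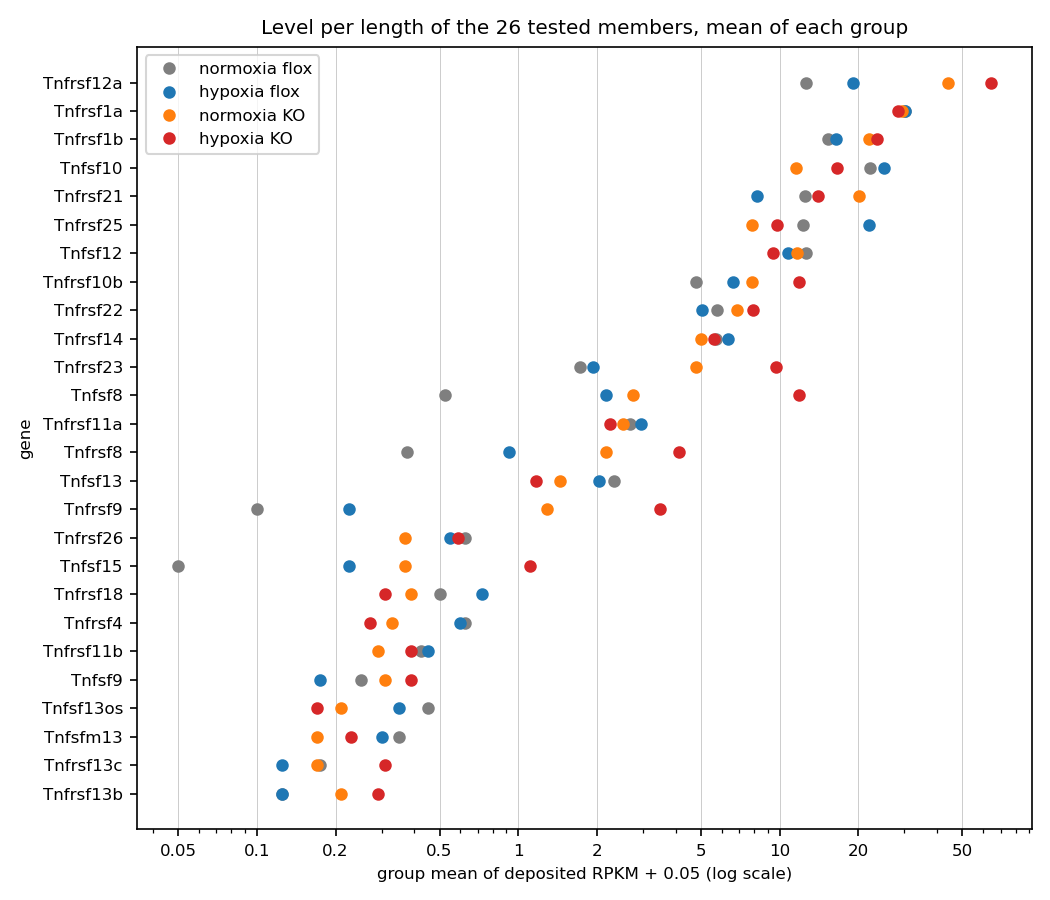
Mean deposited RPKM plus 0.05, on a log axis, of the 26 tested members in each of the 4 groups, ordered by the mean over all libraries. The points of Tnfrsf1a lie on top of each other, whereas those of Tnfrsf12a run from 12.6 to 64.5 RPKM and those of Tnfsf15, Tnfsf8, Tnfrsf8 and Tnfrsf9 rise from normoxia flox through hypoxia flox and normoxia KO to hypoxia KO.

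Loss of Pdcd10 went with higher levels of several receptors and of the ligands Tnfsf8 and Tnfsf15. In normoxia, 8 of the 26 tested members (30.8%) passed as higher in KO, against 9.54% of all genes tested, and 2 (7.69%) as lower, against 7.03% of all genes (edgeR quasi-likelihood test, adjusted p under 0.05). In hypoxia, 10 members (38.5%) passed as higher, against 11.4% of all genes, and 2 (7.69%) as lower, against 11% of all genes. The median log2 fold change of the 26 members was 0.08 in normoxia and 0.50 in hypoxia, where the medians of all genes were -0.02 and -0.0021. Passing as higher at both oxygen levels were Tnfrsf12a, Tnfrsf21, Tnfsf8, Tnfrsf1b, Tnfrsf8, Tnfrsf9, Tnfrsf23 and Tnfsf15, in 2 comparisons that share no library but take their spread from 1 model. With the pairs of equal number as a block (normoxia pairs 1, 2 and 4 only), 6 members passed in normoxia, 5 as higher and 1 as lower. The share of all genes called with that block is not given here, so this count is not set against a background. Tnfrsf9, Tnfsf15, Tnfrsf13b, Tnfrsf13c and Tnfsf9 reached the level of the count filter, 0.472 CPM, in fewer than 4 flox libraries, and Tnfrsf4, Tnfsf13os and Tnfsfm13 in fewer than 4 KO libraries, so these 8 were kept mainly through the genotype in which they were high. The other 18 reached it in at least 4 libraries of each genotype.

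**Figure D2:**
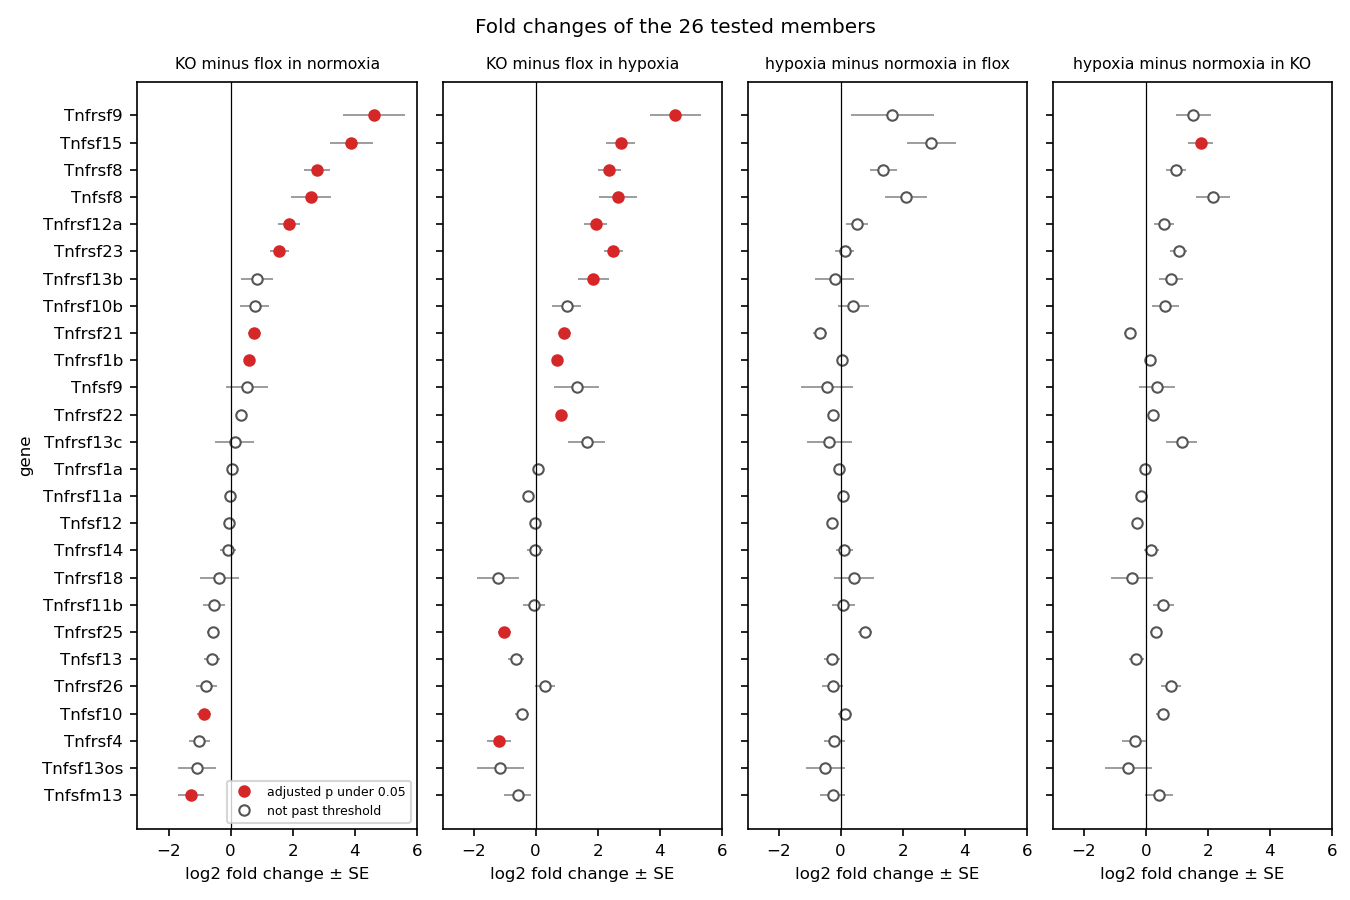
Log2 fold change ± SE of the 26 tested members in 4 comparisons, ordered by the value in normoxia; filled points had an adjusted p under 0.05 in the edgeR quasi-likelihood test. The 8 members called higher at both oxygen levels sit to the right of 0 in the panels of KO minus flox, and 1 point, Tnfsf15, is filled in the panels of hypoxia minus normoxia.

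The CD30 ligand Tnfsf8 and its receptor Tnfrsf8 (CD30), a pair known from activated lymphocytes that signals through TRAF adaptors, were both higher in KO. Tnfsf8 stood at 2.87, 2.67, 0.26 and 1.39 CPM in the normoxia flox libraries and at 12.1, 15.8, 6.75, 10.8 and 8.18 CPM in normoxia KO. In hypoxia it read 9.3, 6.02, 5.45 and 9.84 CPM in flox and 18, 48.9, 18.8, 127 and 27.5 CPM in KO. Every KO library lay above every flox library at the same oxygen level, and hypoxia KO 4 was far above the rest. The log2 fold change was 2.59 ± 0.654 (SE; edgeR adjusted p = 0.0125) in normoxia and 2.65 ± 0.606 (edgeR adjusted p = 0.00589) in hypoxia. Without hypoxia KO 4 the latter was 1.88 (edgeR adjusted p = 0.0115). The normoxia call was lost with the pair as a block over the normoxia pairs 1, 2 and 4 (2.28, edgeR adjusted p = 0.0862) and without the 3 libraries that held Xist together with Y-linked counts (2.03, edgeR adjusted p = 0.115).

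Its receptor Tnfrsf8 was at 0.522, 0.562, 0.825 and 2.36 CPM in the normoxia flox libraries and at 6.93, 8.03, 7.39, 5.36 and 9.96 CPM in normoxia KO. In hypoxia the flox libraries held 3.6, 2.42, 3.02 and 2.35 CPM and the KO libraries 14.8, 11.2, 8.38, 25.8 and 13.9 CPM. Again no KO library overlapped with the flox libraries. The rise was 6.85-fold in normoxia (log2 2.78 ± 0.411, edgeR adjusted p = 0.000175) and 5.17-fold in hypoxia (log2 2.37 ± 0.376, edgeR adjusted p = 0.000356). Normoxia flox 4, the highest of its group, lowered the first of these values, which was 3.52 on the log2 scale without it (edgeR adjusted p = 1.25e-05).

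The ligand TL1A (Tnfsf15), which endothelial cells are known to make, and its death domain receptor DR3 (Tnfrsf25) moved in opposite directions. Tnfsf15 was at 0.209, 0, 0 and 0.285 CPM in the normoxia flox libraries and at 2.34, 1.93, 1.49, 1.94 and 1.93 CPM in normoxia KO. At low oxygen it was at 2.22, 0.684, 0.297 and 0.637 CPM in flox and at 4.52, 9.91, 3.6, 8.63 and 6.33 CPM in KO. The genotypes did not overlap at either oxygen level, and the highest flox library, hypoxia flox 2, reached the range of normoxia KO. The log2 fold change was 3.89 ± 0.696 in normoxia (edgeR adjusted p = 0.000758) and 2.74 ± 0.472 in hypoxia (edgeR adjusted p = 0.000572). Single libraries moved these values: without normoxia flox 4 the normoxia value was 4.78 (edgeR adjusted p = 0.000944), and without hypoxia flox 2 the hypoxia value was 3.59 (edgeR adjusted p = 0.000112).

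Tnfrsf25 was at 28.9, 32.6, 25 and 22 CPM in the normoxia flox libraries and at 25, 18.4, 11.2, 18.4 and 18.6 CPM in normoxia KO. After hypoxia it stood at 41.3, 49.3, 46.2 and 49.8 CPM in flox and at 26.9, 22.3, 28.1, 13.9 and 24.4 CPM in KO. The hypoxia flox libraries were the highest of all 18, and all hypoxia KO libraries lay below them. Tnfrsf25 fell 2.02-fold in KO in hypoxia (log2 -1.01 ± 0.204, edgeR adjusted p = 0.00229), whereas the normoxia value, -0.56 ± 0.204, did not pass (edgeR adjusted p = 0.0711). The normoxia value passed with the replicate block over all libraries (-0.61, edgeR adjusted p = 0.0491), in DESeq2 (-0.58, DESeq2 adjusted p = 0.0443) and without normoxia flox 4 (-0.68, edgeR adjusted p = 0.0404), normoxia KO 1 (-0.70, edgeR adjusted p = 0.0299) or hypoxia KO 4 (edgeR adjusted p = 0.0313). The difference between the normoxia and hypoxia values was not past the threshold either (interaction -0.45 ± 0.29, edgeR adjusted p = 0.993).

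Tnfrsf9 (4-1BB), a co-stimulator best known from T and NK cells, had the largest fold change of the family. It was at 0, 0.0937, 0.13 and 0.285 CPM in the normoxia flox libraries and at 2.04, 4.93, 3.01, 2.83 and 4.5 CPM in normoxia KO. In hypoxia it was at 0.503, 0.0912, 0.297 and 0.882 CPM in flox and at 3.23, 5.82, 4.01, 33.5 and 3.83 CPM in KO. All 10 KO libraries lay above all 8 flox libraries, 9 of the 10 between 2.04 and 5.82 CPM, with hypoxia KO 4 alone far higher. The log2 fold change was 4.63 ± 0.997 in normoxia (edgeR adjusted p = 0.00372) and 4.50 ± 0.808 in hypoxia (edgeR adjusted p = 0.000873), and the latter was 3.24 without hypoxia KO 4 (edgeR adjusted p = 0.000166). In normoxia it was 5.35 without normoxia flox 4 (edgeR adjusted p = 0.0052), and with the pairs as a block it no longer passed (4.54, edgeR adjusted p = 0.0667). Its ligand gene Tnfsf9 (4-1BBL), with at most 14 counts in a library, gave 0.53 ± 0.689 (edgeR adjusted p = 0.664) and 1.33 ± 0.726 (edgeR adjusted p = 0.211).

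**Figure D3:**
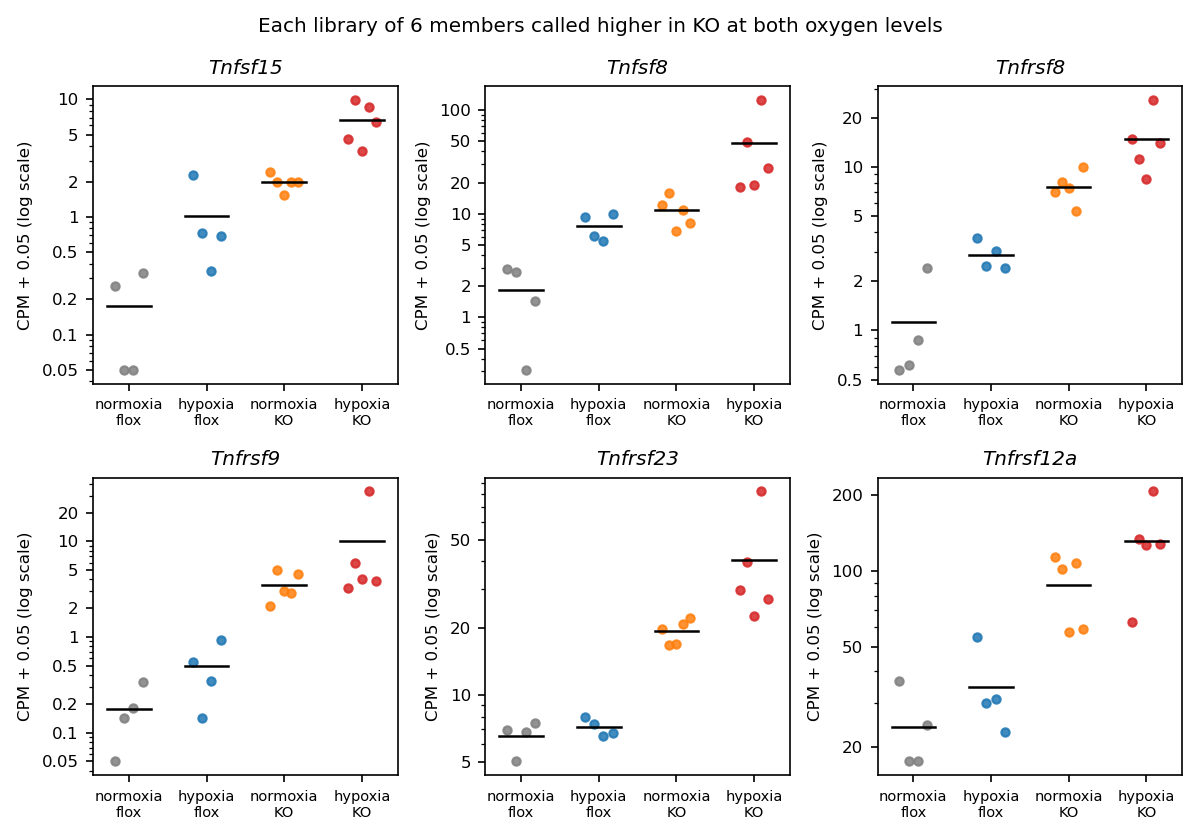
CPM plus 0.05, on a log axis, of 6 members in each library, with the group mean as a bar. In each panel the KO libraries lie above the flox libraries of the same oxygen level, and hypoxia KO 4 is the highest point for Tnfsf8 (127 CPM), Tnfrsf8 (25.8), Tnfrsf9 (33.5), Tnfrsf23 (82.7) and Tnfrsf12a (208).

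Among the receptors that endothelial cells express at high level, Tnfrsf12a (Fn14, the TWEAK receptor, which lacks a death domain) rose most. It was at 36.5, 17.6, 17.5 and 24.4 CPM in the normoxia flox libraries and at 114, 102, 57.2, 108 and 58.9 CPM in normoxia KO. In hypoxia the flox libraries held 54.9, 29.9, 31 and 22.9 CPM and the KO libraries 63, 134, 127, 208 and 128 CPM. The genotypes did not overlap at either oxygen level, although hypoxia KO 1 was close to hypoxia flox 2. The rise was 3.67-fold in normoxia (log2 1.88 ± 0.358, edgeR adjusted p = 0.0017) and 3.80-fold in hypoxia (log2 1.93 ± 0.357, edgeR adjusted p = 0.00136).

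The level of Tnfrsf12a is set here beside that of the immediate early gene Fos, a sign of acute stimulation. Fos was at 3090 to 5730 CPM in 9 libraries, of which 7 were KO, and at 221 to 1330 CPM in the other 9, of which 3 were KO. In the libraries with high Fos, Tnfrsf12a was at 36.5 to 54.9 CPM in 2 flox libraries and at 102 to 208 CPM in 7 KO libraries. In those with low Fos it was at 17.5 to 31 CPM in 6 flox libraries and at 57.2 to 63 CPM in 3 KO libraries. Each set mixes both oxygen levels, and the part of such stimulation in the difference was not tested. Its ligand TWEAK (Tnfsf12) was nearly level, with 13 to 21.6 CPM over all libraries and log2 fold changes of -0.04 ± 0.116 (edgeR adjusted p = 0.864) and -0.04 ± 0.117 (edgeR adjusted p = 0.872). The interval of 1.96 SE around both ran from 0.832-fold to 1.14-fold.

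The TRAIL axis, which comprises an apoptosis ligand, a death receptor and a set of decoys, showed a lower ligand in normoxia, a higher Tnfrsf23 decoy at both oxygen levels and a higher Tnfrsf22 decoy in hypoxia. The TRAIL gene Tnfsf10 was at 111, 157, 112 and 72.9 CPM in the normoxia flox libraries and at 68.8, 71.9, 41.2, 79.1 and 52 CPM in normoxia KO. Normoxia flox 4 fell within the KO range. Tnfsf10 fell 1.81-fold in KO in normoxia (log2 -0.85 ± 0.214, edgeR adjusted p = 0.0114), a call that was lost without normoxia flox 2 (-0.67, edgeR adjusted p = 0.0529), with only the groups compared in the model (-0.86, edgeR adjusted p = 0.0539) and with a replicate block over all libraries (-0.83, edgeR adjusted p = 0.0507). Under hypoxia the level was 112, 138, 105 and 141 CPM in flox and 69, 98.6, 81.2, 117 and 89.2 CPM in KO (log2 -0.44 ± 0.214, edgeR adjusted p = 0.155). This hypoxia value passed as lower with the immediate early score as covariate (-0.66, edgeR adjusted p = 0.0429). It also passed without the neuron-marker libraries (-0.46, edgeR adjusted p = 0.0472) and with only the groups compared in the model (-0.45, edgeR adjusted p = 0.0485).

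The mouse decoy TRAIL receptors are encoded by Tnfrsf22 and Tnfrsf23, which lie side by side on chromosome 7 with Tnfrsf26. Tnfrsf23 was at 6.89, 4.97, 6.73 and 7.46 CPM in the normoxia flox libraries and at 19.8, 16.8, 16.9, 20.9 and 22.2 CPM in normoxia KO. At 12% oxygen it was at 7.88, 7.39, 6.49 and 6.71 CPM in flox and at 29.6, 39.7, 22.7, 82.7 and 27.1 CPM in KO. The flox libraries of both oxygen levels stayed under 8 CPM, and every KO library was above 16 CPM. The rise was 2.97-fold in normoxia (log2 1.57 ± 0.300, edgeR adjusted p = 0.0016) and 5.67-fold in hypoxia (log2 2.50 ± 0.308, edgeR adjusted p = 4.16e-05). The former was 1.46 with the pairs as a block (edgeR adjusted p = 0.0502).

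Tnfrsf22 moved less: it was at 24.1, 25.4, 24.8 and 19.6 CPM in the normoxia flox libraries and at 30.4, 29.2, 25.3, 31.6 and 32.2 CPM in normoxia KO. At low oxygen it was at 19.6, 20.6, 21.1 and 17.9 CPM in flox and at 31.5, 35.7, 27.1, 48.2 and 31 CPM in KO. It passed in hypoxia, at 1.75-fold (log2 0.81 ± 0.138, edgeR adjusted p = 0.00067), and not in normoxia (log2 0.34 ± 0.137, edgeR adjusted p = 0.104). Tnfrsf26, the third gene of the row, gave -0.78 ± 0.329 (edgeR adjusted p = 0.125) and 0.31 ± 0.326 (edgeR adjusted p = 0.553) at levels of 0.673 to 3.64 CPM. Because 17.3% of the 50-base words of Tnfrsf22 also occur in Tnfrsf23, and 18% the other way, counting may have split reads between them. Exons of Tnfrsf23 and Tnfrsf26 also overlap an unnamed gene on the opposite strand, and the strand setting of the counting is not given in the sources used here.

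The death receptor of this axis, Tnfrsf10b (DR5), did not pass in either genotype comparison, with a log2 fold change of 0.78 ± 0.467 in normoxia (edgeR adjusted p = 0.3) and 1.00 ± 0.468 in hypoxia (edgeR adjusted p = 0.144). Normoxia libraries held 56.7, 16.9, 13.8 and 15.5 CPM with flox and 60.7, 52.5, 21.3, 57.5 and 28.3 CPM with KO. Hypoxia libraries held 62.3, 26.7, 23.5 and 23.7 CPM with flox and 34.5, 80.3, 70.7, 81 and 73.5 CPM with KO. The groups overlapped, with 1 high flox library at each oxygen level, 2 low KO libraries in normoxia and 1 in hypoxia. The 9 libraries above 50 CPM were the same 9 in which Fos was high: Tnfrsf10b was at 52.5 to 81 CPM there and at 13.8 to 34.5 CPM in the others. Leaving out normoxia flox 1, which had high Fos, brought the normoxia value to 1.50 (edgeR adjusted p = 0.0288). Leaving out hypoxia flox 2, likewise with high Fos, brought the hypoxia value to 1.46 (edgeR adjusted p = 0.0444). In each case the flox libraries left at that oxygen level all had low Fos, while most KO libraries had high Fos. When the model also held the level of immediate early genes, Tnfrsf10b passed in neither genotype comparison. The part of this uneven Fos in the calls gained by leaving out a library was not tested. Osteoprotegerin (Tnfrsf11b), a soluble decoy, was at 0.339 to 1.56 CPM in all libraries and did not pass.

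**Figure D4:**
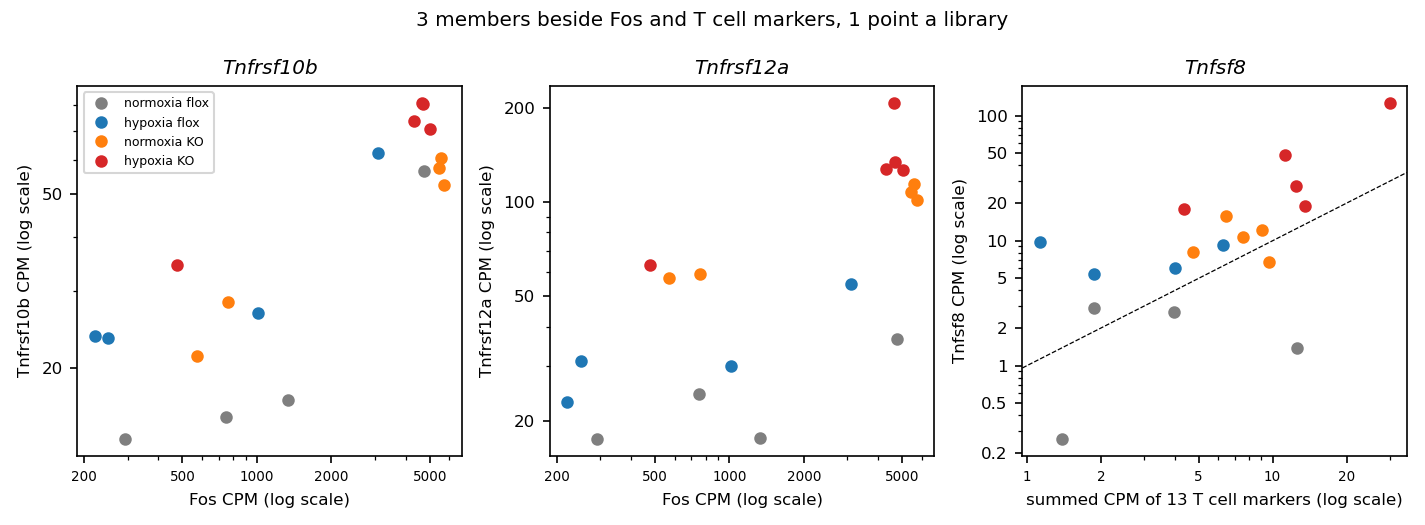
Tnfrsf10b and Tnfrsf12a against Fos, and Tnfsf8 against the sum of 13 T cell markers, in CPM on log axes with 1 point for each library; the dashed line marks equal values. Tnfrsf10b falls into a high and a low set with Fos, and Tnfrsf12a is at 102 to 208 CPM in the KO libraries with high Fos and at 57.2 to 63 CPM in those with low Fos. Tnfsf8 lies above the T cell sum in 9 of 10 KO and 5 of 8 flox libraries, in values not scaled by gene length.

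The receptors of TNF itself differed from each other. Tnfrsf1b (TNFR2, which binds TRAF2) was at 60.4, 63.6, 59.1 and 43.9 CPM in the normoxia flox libraries and at 90.9, 84.1, 73.9, 88.8 and 94.3 CPM in normoxia KO. After hypoxia it stood at 61.4, 54.7, 58.4 and 60.1 CPM in flox and at 82.3, 96.2, 83.7, 131 and 79.3 CPM in KO. No KO library overlapped with flox, and the rise was 1.52-fold in normoxia (log2 0.61 ± 0.139, edgeR adjusted p = 0.00623) and 1.61-fold in hypoxia (log2 0.69 ± 0.139, edgeR adjusted p = 0.00238). The normoxia call was lost without the 3 libraries of mixed sex signal (0.48, edgeR adjusted p = 0.0584) and with a replicate block over all libraries (0.57, edgeR adjusted p = 0.0619). Tnfrsf1a (TNFR1, with a death domain) gave 0.04 ± 0.139 (edgeR adjusted p = 0.896) and 0.07 ± 0.139 (edgeR adjusted p = 0.793), and the interval of 1.96 SE ran from 0.849-fold to 1.24-fold and from 0.866-fold to 1.26-fold.

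Tnfrsf21 (DR6, a death domain receptor known from neurons and endothelium) was at 41.4, 37.9, 44.5 and 76.4 CPM in the normoxia flox libraries and at 81.9, 71, 98.2, 78.2 and 95 CPM in normoxia KO. In hypoxia it was at 34.1, 33.8, 33.8 and 24.2 CPM in flox and at 71.1, 63, 65.4, 38.7 and 60.2 CPM in KO. Normoxia flox 4, 1 of the 2 libraries with neuron markers, lay within the KO range, and in hypoxia the groups did not overlap. That library also had the highest sums of astrocyte and oligodendrocyte markers. The rise was 1.69-fold in normoxia (log2 0.76 ± 0.204, edgeR adjusted p = 0.0168) and 1.90-fold in hypoxia (log2 0.92 ± 0.206, edgeR adjusted p = 0.00462). The normoxia call was lost when normoxia flox 1, 2 or 3 was left out (edgeR adjusted p up to 0.0706) or with a replicate block over all libraries (0.78, edgeR adjusted p = 0.0673), and the hypoxia call with a sex signal as covariate (0.66, edgeR adjusted p = 0.0812).

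**Figure D5:**
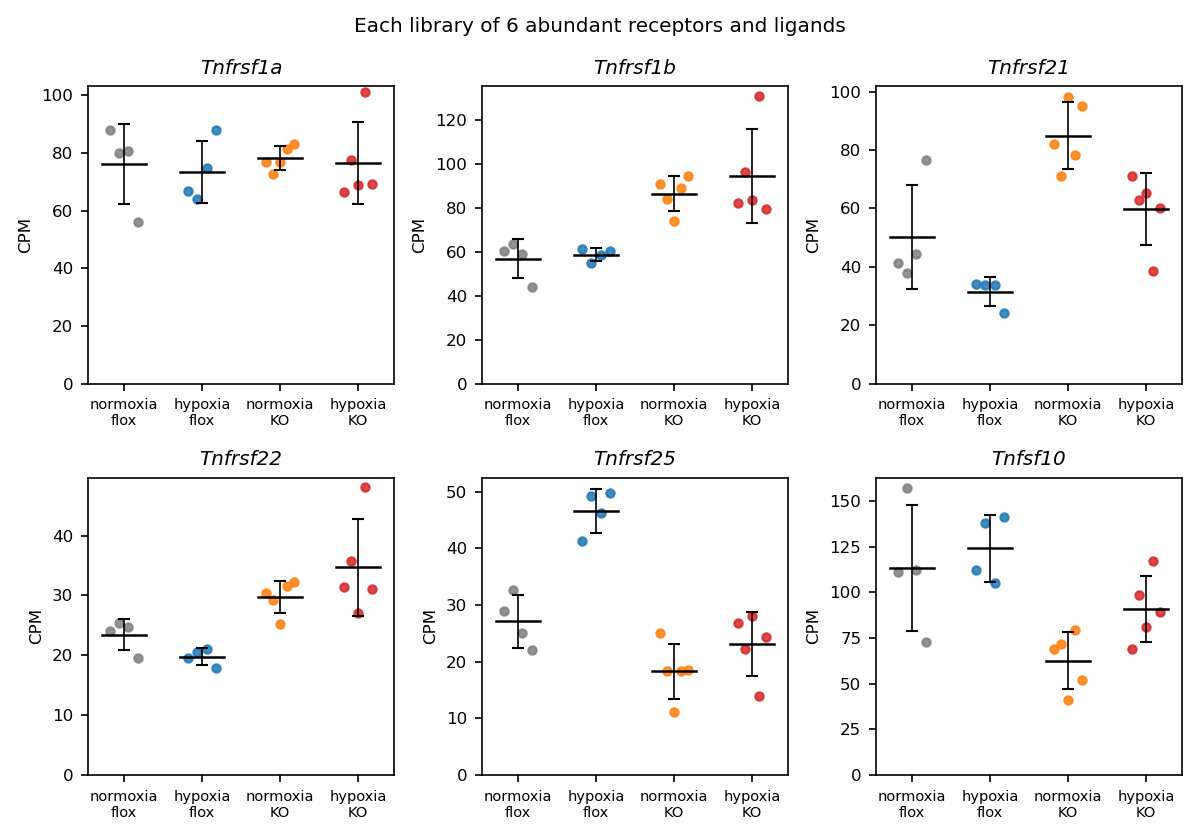
CPM of 6 abundant members in each library, with group mean and SD. Tnfrsf1a is level across groups, Tnfrsf1b and Tnfrsf21 are higher in KO, Tnfrsf22 is higher in hypoxia KO than in hypoxia flox, Tnfrsf25 is highest in hypoxia flox at 41.3 to 49.8 CPM, and Tnfsf10 is lower in normoxia KO than in normoxia flox, with 1 flox library in the KO range.

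In the BAFF and APRIL system, which supports B cells and plasma cells, counts of the receptors and of BAFF were low, while the APRIL gene Tnfsf13 was at 1.22 to 4.45 CPM. The receptor gene Tnfrsf13b (TACI) was at 0.104, 0.141, 0.0434 and 0.571 CPM in the normoxia flox libraries and at 0.56, 0.583, 0.509, 0.223 and 0.254 CPM in normoxia KO. Under hypoxia the level was 0.293, 0.137, 0.248 and 0.098 CPM in flox and 0.485, 0.862, 0.729, 0.872 and 0.663 CPM in KO, without overlap. It passed in hypoxia (log2 1.85 ± 0.495, edgeR adjusted p = 0.0135) and not in normoxia (log2 0.85 ± 0.51, edgeR adjusted p = 0.297). Without hypoxia flox 5 the hypoxia call was lost (edgeR adjusted p = 0.05), and without normoxia flox 4, the highest of its group, the normoxia value passed (2.03, edgeR adjusted p = 0.0104). Of the 8 B and plasma cell markers tested, 5 passed as higher in KO in normoxia and 7 in hypoxia, and the summed level of the list in hypoxia was 6.17 to 20.8 CPM in flox and 27.2 to 64.7 CPM in KO. Their part in the result was not tested.

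The BAFF receptor gene Tnfrsf13c gave 0.13 ± 0.629 (edgeR adjusted p = 0.915) and 1.65 ± 0.597 (edgeR adjusted p = 0.057). Tnfrsf17 (BCMA), with 12 counts in all, and the BAFF gene Tnfsf13b, with 113, were not tested. The APRIL gene Tnfsf13 gave -0.61 ± 0.25 (edgeR adjusted p = 0.115) and -0.64 ± 0.262 (edgeR adjusted p = 0.0924). The locus Tnfsfm13, which joins Tnfsf12 and Tnfsf13 on chromosome 11, was at 0.626, 0.422, 0.825 and 0.734 CPM in the normoxia flox libraries and at 0.255, 0.179, 0.34, 0.372 and 0.19 CPM in normoxia KO. It passed as lower in normoxia (log2 -1.28 ± 0.421, edgeR adjusted p = 0.0478), and the call was kept in 10 of 29 alternatives; with the pairs as a block the value was -1.21 (edgeR adjusted p = 0.225). In hypoxia it was at 0.251, 0.411, 0.941 and 0.637 CPM in flox and at 0.808, 0.269, 0.228, 0.194 and 0.357 CPM in KO, with overlap, and did not pass (log2 -0.58 ± 0.431, edgeR adjusted p = 0.37). Tnfsf13os, at 0.0449 to 0.998 CPM, gave -1.08 ± 0.617 (edgeR adjusted p = 0.27) and -1.14 ± 0.748 (edgeR adjusted p = 0.305). Of the 50-base words of Tnfsfm13, 29.4% are shared with Tnfsf12 and 40.3% with Tnfsf13, and Tnfsf13os overlaps on the opposite strand, so reads of these 4 loci cannot be assigned with certainty.

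Of the co-stimulatory receptors best known from T cells, Tnfrsf4 (OX40) was at 0.574, 0.797, 0.912 and 0.856 CPM in the normoxia flox libraries and at 0.306, 0.0897, 0.425, 0.521 and 0.539 CPM in normoxia KO. At 12% oxygen it was at 0.419, 0.639, 0.891 and 0.833 CPM in flox and at 0.215, 0.485, 0.182, 0.388 and 0.255 CPM in KO, where 1 KO library overlapped with flox. It was lower in KO in hypoxia (log2 -1.17 ± 0.386, edgeR adjusted p = 0.0392), in 16 of 27 alternatives, and in normoxia gave -1.01 ± 0.346 (edgeR adjusted p = 0.0571). This was the opposite direction to Tnfrsf9. Its neighbour Tnfrsf18 (GITR) gave -0.36 ± 0.638 (edgeR adjusted p = 0.754) and -1.22 ± 0.668 (edgeR adjusted p = 0.215).

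Tnfrsf14 (HVEM), at 5.85 to 12.3 CPM, and Tnfrsf11a (RANK), at 10.3 to 17.8 CPM, did not pass in any comparison. For Tnfrsf11a the interval of 1.96 SE ran from 0.806-fold to 1.22-fold in normoxia and from 0.689-fold to 1.04-fold in hypoxia. The ligand of GITR, Tnfsf18, and that of HVEM, Tnfsf14 (LIGHT), were not tested. Of the 31 counts of Tnfsf14, 25 were in hypoxia KO, with 15 of these in a single library, and none in normoxia flox.

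Fewer members passed between oxygen levels than between genotypes, as was so for all genes tested. Of all genes, 16.6% passed between genotypes in normoxia and 22.3% in hypoxia. Between oxygen levels 2.81% passed in flox and 1.48% in KO. In flox, 0 of the 26 members passed between hypoxia and normoxia in edgeR, against 2.81% of all genes. An unadjusted p under 0.05 was found for 6, and DESeq2 called 4. The shares of all genes for these last 2 counts are not given here, so they are not set against a background. The largest values were those of Tnfsf15 (log2 2.92 ± 0.78, edgeR adjusted p = 0.053), Tnfsf8 (2.11 ± 0.672, edgeR adjusted p = 0.13), Tnfrsf9 (1.66 ± 1.33, edgeR adjusted p = 0.594) and Tnfrsf8 (1.38 ± 0.436, edgeR adjusted p = 0.123). Tnfrsf25 gave 0.78 ± 0.216 (edgeR adjusted p = 0.0672), with every hypoxia flox library above every normoxia flox library. Without normoxia flox 4, Tnfsf15 (3.84, edgeR adjusted p = 0.0472) and Tnfrsf8 (2.13, edgeR adjusted p = 0.00706) passed. The 4 members called by DESeq2 were Tnfsf15 (2.97, DESeq2 adjusted p = 0.000913), Tnfsf8 (2.09, DESeq2 adjusted p = 0.0158), Tnfrsf25 (0.78, DESeq2 adjusted p = 0.0194) and Tnfrsf8 (1.41, DESeq2 adjusted p = 0.0238).

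In KO, 1 member (3.85%) passed between hypoxia and normoxia, against 1.48% of all genes: Tnfsf15 was 3.42-fold higher in hypoxia (log2 1.78 ± 0.399, edgeR adjusted p = 0.0333), all 5 hypoxia libraries lying above all 5 normoxia libraries. The call was kept in 18 of 29 alternatives and lost when any 1 of the normoxia KO libraries, or hypoxia KO 2, 4 or 5, was left out; without hypoxia KO 4 the value was 1.66 (edgeR adjusted p = 0.0782). A further 9 members had an unadjusted p under 0.05, a count for which the share of all genes is not given here. Tnfsf8 was at 2.17 ± 0.542 (edgeR adjusted p = 0.0613) and Tnfrsf23 at 1.06 ± 0.267 (edgeR adjusted p = 0.0598). The median log2 difference of the members was 0.40, and that of all genes -0.03. In flox the medians were 0.06 and -0.03.

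No member passed the test of whether the genotype difference changed with oxygen, against 0.439% of all genes (edgeR; 3 members had an unadjusted p under 0.05, and DESeq2 called 0). The values nearest to it were those of Tnfrsf22 (0.47 ± 0.193, edgeR adjusted p = 0.776), Tnfrsf26 (1.08 ± 0.464, edgeR adjusted p = 0.811) and Tnfrsf23 (0.93 ± 0.41, edgeR adjusted p = 0.854), the neighbours on chromosome 7. A member called at 1 oxygen level alone was therefore not shown to differ between oxygen levels.

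The superfamily also has ligands and receptors with other names. Their values here are for KO minus flox, and where a pair is given the first is in normoxia and the second in hypoxia. Of 7 such ligands, 3 were tested. Ltb (lymphotoxin beta) passed as higher in KO in hypoxia (log2 1.65 ± 0.473, edgeR adjusted p = 0.02) but not in normoxia (1.33 ± 0.536, edgeR adjusted p = 0.107). Tnf gave 2.30 ± 1.03 (edgeR adjusted p = 0.149) and 2.31 ± 0.968 (edgeR adjusted p = 0.102), and its libraries spread from 0.0868 to 25.3 CPM. Of 8 receptors, Eda2r, a receptor of the ectodysplasin form EDA-A2, rose at both oxygen levels (log2 2.49 ± 0.281, edgeR adjusted p = 1.27e-05, and 1.85 ± 0.262, edgeR adjusted p = 0.000148). Cd40 rose less (0.44 ± 0.0826, edgeR adjusted p = 0.0013, and 0.35 ± 0.0824, edgeR adjusted p = 0.00678). The death receptor gene Fas fell (-0.91 ± 0.207, edgeR adjusted p = 0.00607, and -1.28 ± 0.208, edgeR adjusted p = 0.000443). The lymphotoxin beta receptor gene Ltbr gave -0.04 ± 0.0956 (edgeR adjusted p = 0.83) and 0.04 ± 0.0957 (edgeR adjusted p = 0.808).

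Downstream, 3 of 15 TRAF and death domain adaptor genes passed as higher in KO in normoxia; in hypoxia 5 passed as higher and 1 as lower. Of all genes tested, 9.54% passed as higher and 7.03% as lower in normoxia, and 11.4% and 11% in hypoxia. Traf1, which binds receptors such as TNFR2, 4-1BB and CD30, rose by 1.55 ± 0.178 (edgeR adjusted p = 1.48e-05) and 1.35 ± 0.177 (edgeR adjusted p = 7.17e-05), and Traf3, a brake on non-canonical NF-kB, by 0.65 ± 0.107 (edgeR adjusted p = 0.000445) and 0.70 ± 0.107 (edgeR adjusted p = 0.000257). Of 15 genes of NF-kB kinases, subunits and inhibitors, 4 passed as higher in KO in normoxia, and 6 as higher and 1 as lower in hypoxia. The median log2 fold change was 0.26 in both comparisons for the adaptors, and 0.44 and 0.64 for the NF-kB genes, where those of all genes were -0.02 and -0.0021. Those called in both were Nfkb2 (0.94 ± 0.203, edgeR adjusted p = 0.00429, and 0.64 ± 0.201, edgeR adjusted p = 0.032) and Relb (0.88 ± 0.157, edgeR adjusted p = 0.000882, and 0.75 ± 0.155, edgeR adjusted p = 0.00298), the subunits of the non-canonical pathway, with Rela and the inhibitor gene Nfkbie. Of 8 genes of linear ubiquitin and its removal, Tnip1, which restrains NF-kB, rose in both comparisons (0.83 ± 0.137, edgeR adjusted p = 0.000444, and 0.87 ± 0.137, edgeR adjusted p = 0.000325). Of the 4 sheddase genes, Adam10 and Rhbdf2 were higher in KO in hypoxia and Adam17, the TNF sheddase, was lower (-0.26 ± 0.0886, edgeR adjusted p = 0.0435).

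Several of the raised members are best known from lymphocytes, and their levels are set here beside markers of these cells. Of the 9 T cell markers tested, 2 passed as higher in KO in normoxia and 7 in hypoxia. Of the 4 NK cell markers tested, 0 passed in normoxia and all 4 passed as higher in KO in hypoxia. Of the 14 markers of myeloid cells and microglia tested, 1 passed as higher in normoxia and 5 in hypoxia, where their sum was 222 CPM in hypoxia KO 4 and 44 to 99 CPM in the other hypoxia KO libraries. Of 5 dendritic cell markers tested, 1 passed as lower in normoxia and 2 as higher in hypoxia, and of 6 fibroblast markers 1 and 2 passed as higher. Hypoxia KO 4 had the highest sums, 29.9 CPM over 13 T cell markers and 19.3 CPM over 8 NK cell markers, and also the highest Tnfrsf9 and Tnfsf8. In CPM, which is not scaled by gene length, Tnfsf8 was above the summed T cell markers in 9 of the 10 KO libraries and in 5 of the 8 flox libraries. Tnfrsf8 was above that sum in 4 KO and 2 flox libraries, and Tnfsf15 in 1 KO and 0 flox libraries. Tnfrsf9 exceeded that sum in 1 KO library, and in the other 9 it did not. Without hypoxia KO 4, 12 members passed between KO and flox in hypoxia, 11 as higher and 1 as lower, and 11 of the 12 were among those called with all libraries. The share of all genes called without that library is not given here. Tnfrsf4 was then no longer called (-1.28, edgeR adjusted p = 0.0531) and Tnfrsf13c was (1.83, edgeR adjusted p = 0.049). The part of these cells in the results was not tested.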

How the data were processed

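RNA of isolated mouse brain endothelial cells was sequenced from 18 libraries made with a stranded mRNA kit, per the labels' protocols. The authors worked with HISAT2, GRCm39 and edgeR, per the submitters' processing notes, which give no versions; the counting tool and strand setting are not given in the sources used here. The deposited counts are raw whole numbers per Ensembl gene, and the deposited RPKM, with 1 decimal, are scaled by library total and gene length by the authors. Identifiers were matched to GENCODE M21 and NCBI symbols of GRCm38; 91.3% had a symbol, and rows without one held 0.723% of counts. RPKM served for levels between genes.

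Counts were tested in R 4.3.3 with edgeR 4.0.16: filterByExpr with the groups given, TMM, 1 model of the 4 groups over all 18 libraries, and the robust quasi-likelihood F test, with Benjamini-Hochberg adjustment over 17531 genes and a threshold of 0.05. SE was computed as the log2 fold change over the root of F. The code was tested on simulated data. Members, lists and tests were chosen with earlier results of these data known. Every member was accounted for, and those called in any comparison were given by library. The alternatives comprised RLE scaling, another filter (none, or 1 CPM in 4 libraries), DESeq2 1.42.0, the legacy fit, only the groups compared, a replicate block, an immediate early or sex covariate, and leaving out libraries. No label says what the replicate numbers mean. For normoxia numbers 1, 2 and 4, deviations from group means correlated between the genotypes at r = 0.579, 0.294 and 0.847 across genes. The libraries of number 2 were not each other's closest match. Those of number 1 shared high Fos and those of number 4 shared neuron markers. Whether the numbers pair animals was not tested. In no other comparison was every r over 0.1. No pair of libraries within a group agreed within sampling noise.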

Additional observations from a re-analysis of the deposited data

Results flagged for a closer look

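For the 14 members called in any comparison, the highest or lowest library of each group was set against the others, and in 6 of 56 groups it stood apart by Dixon's criterion, which chance alone meets in about 1 group in 20. In 3 of the 6 the library was hypoxia KO 4, which was the highest of its group with 127 CPM of Tnfsf8 (next library 48.9 CPM), 33.5 CPM of Tnfrsf9 (next 5.82 CPM) and 82.7 CPM of Tnfrsf23 (next 39.7 CPM). It was also the hypoxia KO library with Y-linked counts. Normoxia flox 4, which held neuron markers, was the highest of its group with 2.36 CPM of Tnfrsf8 (next 0.825 CPM). Hypoxia flox 5 was the lowest of its group with 24.2 CPM of Tnfrsf21 (next 33.8 CPM). Hypoxia KO 1 was the highest of its group with 0.808 CPM of Tnfsfm13 (next 0.357 CPM). What set these libraries apart was not tested.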

How the results depend on the processing

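The number of members called was recomputed under each alternative. The shares of all genes called under the alternatives are not given here, so these counts are not set against a background. Leaving out each library in turn gave 8 to 13 calls for KO minus flox in normoxia (10 with all libraries), 10 to 14 in hypoxia (12), 0 to 2 for hypoxia minus normoxia in flox (0), 0 to 3 in KO (1) and 0 for the interaction. The replicate block over the normoxia pairs 1, 2 and 4 alone, chosen after seeing the data, gave 6 calls in normoxia. A replicate block over all libraries gave 7 in normoxia and 11 in hypoxia, 1 for oxygen in flox, 0 for oxygen in KO and 0 for the interaction. For oxygen in flox there was 1 call with the filter of 1 CPM, 3 with the immediate early covariate, 2 without the neuron-marker libraries, 1 with only the groups compared, 4 with DESeq2 and 1 without the 3 libraries with Xist and Y-linked counts, also chosen after seeing the data. For oxygen in KO the legacy fit and leaving out those 3 libraries gave 0, the immediate early covariate 2, and the sex covariate and DESeq2 3 each; the cause was not tested. Of 3691 values of single members under these alternatives, 3579 kept their side of the threshold, 57 lost a call, 55 gained one and 0 reversed a call. Tnfrsf12a, Tnfrsf8 and Tnfsf15 kept their calls in all alternatives of both genotype comparisons, as did Tnfrsf1b, Tnfrsf22, Tnfrsf23, Tnfrsf25, Tnfrsf9 and Tnfsf8 in hypoxia. Depth limits members under 1 CPM, such as Tnfrsf13b, Tnfrsf4 and Tnfsfm13.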
